A study of Arabidopsis thaliana with 12 samples.

Results

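The genes described are 4 loci of the tricarboxylic acid cycle and its cytosolic side branch. They are AT5G55070, of the oxoglutarate dehydrogenase complex; AT5G08300, of succinyl-CoA ligase; SDH2-1, the iron-sulfur subunit of succinate dehydrogenase; and cICDH, the cytosolic isocitrate dehydrogenase. They were chosen by name, with earlier results of these data known. Their probe sets are those that the platform annotation assigns to exactly 1 of these genes. That gave 5 of the 13513 probe sets naming 1 gene: 2 for SDH2-1 and 1 for each other gene.

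Whole seedlings of Arabidopsis thaliana were profiled on 12 Affymetrix arrays, with 3 arrays in each of 4 groups. The groups were acn1-2 with 100 mM sucrose, Col-7 with 100 mM sucrose, acn1-2 untreated and Col-7 untreated. The acn1-2 line (written ACN1-2 in the labels) carries a T-DNA insertion in AT3G16910 in the Col-7 ecotype, and AT3G16910 encodes ACN1, an enzyme that activates acetate. Seeds of all groups were stratified for 4 days at 4 °C, and the seedlings were grown at 20 °C in unbroken light on MS agar of pH 5.7. The mutant is 1 insertion line, and the labels speak of 3 pools of 1000 seedlings without tying pools to arrays. Separate cultures are not stated for the replicates, and every p therefore covers the spread among these arrays alone, which may be technical. The study asked how organic acids and carbohydrates together regulate transcript levels.

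The tricarboxylic acid cycle oxidises acetyl groups in the mitochondrial matrix and supplies reducing power to the respiratory chain and carbon skeletons to biosynthesis. The oxoglutarate dehydrogenase complex makes succinyl-CoA, succinyl-CoA ligase turns it into succinate with a gain of nucleoside triphosphate, and succinate dehydrogenase oxidises succinate to fumarate while also serving as a complex of the respiratory chain. cICDH stands outside the mitochondrion, where it makes oxoglutarate and NADPH from isocitrate. In seedlings that live on stored oil, acetyl-CoA also enters the glyoxylate cycle, and ACN1 lets acetate join it.

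Each value is a linear intensity of a probe set, scaled by the authors to the same trimmed mean of 100.0 on each array. Array medians ran from 41.0 to 47.2, and with 12 arrays the precision is limited by their number. The annotation assigned 0 probe sets to AT3G16910, so the insertion could not be checked on its own gene. As arrays, acn1-2 untreated replicate 3 and Col-7 sucrose replicate 3 stood apart. The SD of their log2 deviations from the group mean was 0.245 and 0.203, while the other arrays ran from 0.115 to 0.19. By scanner background the extremes were acn1-2 untreated replicates 1 and 2, at 69.28 and 122.24, and the other arrays ran from 94.17 to 110.82. The labelled tissue was checked on the few markers the annotation named: 3 of 15 shoot, 2 of 10 root and 2 of 14 seed loci, all of them detected.

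All 4 genes were tested through 1 probe set each, and all 4 changed with sucrose in both lines. AT5G55070, AT5G08300 and SDH2-1 rose, by 1.43-fold to 2.35-fold, and cICDH fell, to 0.811-fold in Col-7 and 0.83-fold in acn1-2. Changes were tested with limma on log2 intensity over 13764 probe sets, with Benjamini-Hochberg adjustment and a call at an adjusted p under 0.05. In acn1-2 the 4 of 4 called stand against 56.9% of all tested probe sets called, 27.4% higher and 29.6% lower. In Col-7 they stand against 50.2% called, 25.9% higher and 24.3% lower. Across both lines, 21.3% of tested probe sets were called higher in each and 20.8% lower in each. Sucrose and untreated arrays did not overlap for 4 of 4 genes in either line, against 62.9% of tested probe sets in acn1-2 and 61.1% in Col-7. With so many probe sets called, the count for 4 genes is not a result about these genes, and the sizes below carry the description. The median log2 change of the 4 genes was 0.76 in acn1-2 and 0.65 in Col-7, against -0.04 and 0.00 over all tested probe sets. The directions and sizes of these sucrose changes were already known when the genes were chosen.

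**Figure D1:**
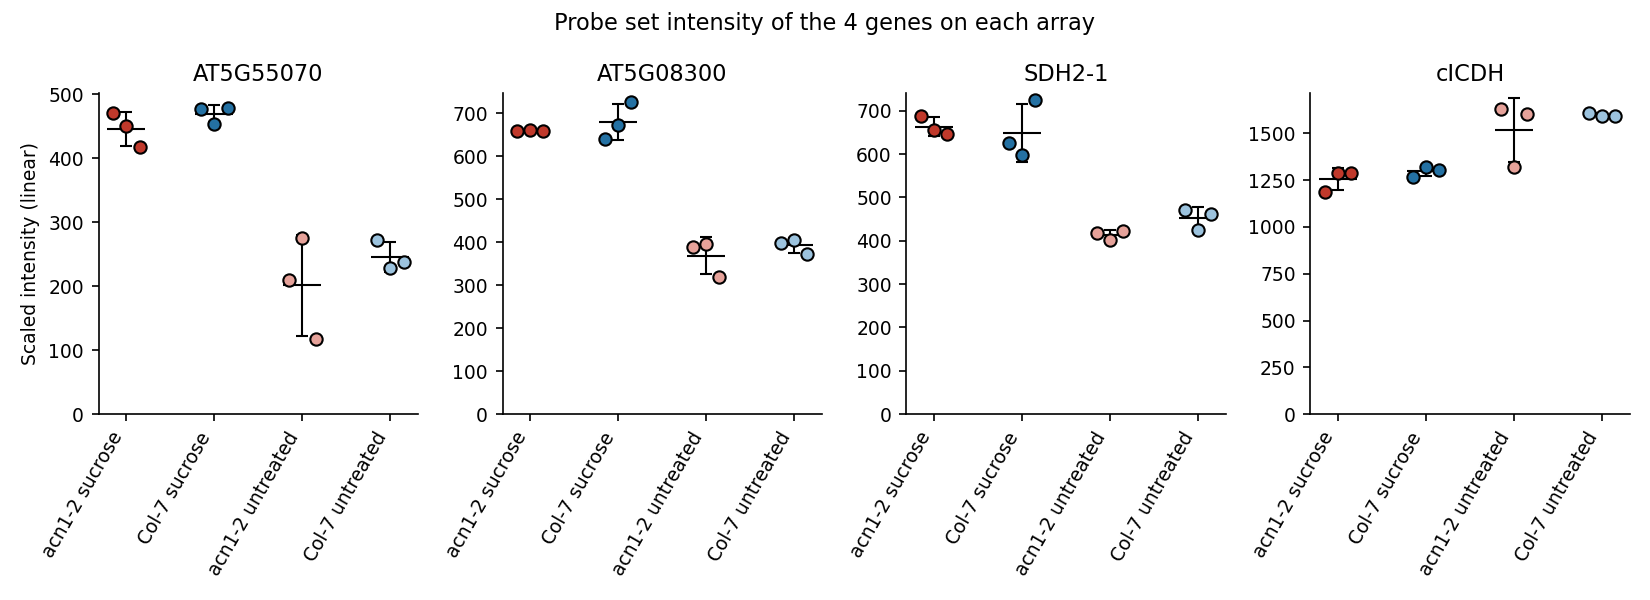
Scaled intensity (linear, y axis from 0) of the tested probe set of each gene on the 12 arrays, with the group mean and SD as bars. Sucrose arrays lie above untreated arrays for AT5G55070, AT5G08300 and SDH2-1, and below them for cICDH; 1 untreated acn1-2 array of AT5G55070 lies at 118.1.

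AT5G55070, which belongs to the oxoglutarate dehydrogenase complex, had the largest fitted changes of the 4 genes (probe set 248088_at). In acn1-2 its intensity was 470.3, 450.5 and 418.0 with sucrose, against 210.4, 275.9 and 118.1 untreated. In Col-7 it was 476.7, 454.4 and 478.3 with sucrose, against 272.9, 228.2 and 237.6 untreated. Every sucrose array was above every untreated array, and the lowest value of the 12 was acn1-2 untreated replicate 3.

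The means for AT5G55070 were 446 ± 26.4 with sucrose and 201.5 ± 79.3 untreated in acn1-2, and 469.8 ± 13.4 with sucrose and 246 ± 23.6 untreated in Col-7 (SD, n = 3 each). The log2 change was 1.23 in acn1-2 (SE 0.22, limma adjusted p 0.00045), a 2.35-fold rise with a 95% interval of 1.68 to 3.28. In Col-7 it was 0.94 (SE 0.22, adjusted p 0.00365), a 1.91-fold rise with an interval of 1.37 to 2.67. Of all tested probe sets, 3.31% had a larger rise in acn1-2, and 4.96% in Col-7. The gene was chosen with its change known, so this rank is a description. The acn1-2 rise was 0.89 without acn1-2 untreated replicate 3 (adjusted p 0.000128), so it stayed called and became smaller.

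AT5G08300, of succinyl-CoA ligase, was measured by probe set 246035_at. In acn1-2 its intensity was 657.9, 660.8 and 657.6 with sucrose, against 389.1, 396.7 and 318.5 untreated. In Col-7 it was 640.5, 672.0 and 725.1 with sucrose, against 398.6, 405.5 and 372.4 untreated. The media did not overlap in either line, and the 3 acn1-2 sucrose arrays lay closest together. The means in acn1-2 were 658.8 ± 1.77 with sucrose and 368.1 ± 43.1 untreated (SD, n = 3 each). Those in Col-7 were 679.2 ± 42.8 with sucrose and 392.2 ± 17.5 untreated (SD, n = 3 each).

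The log2 change of AT5G08300 was 0.85 in acn1-2 (SE 0.10, limma adjusted p 2.08e-05), a 1.8-fold rise with an interval of 1.54 to 2.1. In Col-7 it was 0.79 (SE 0.10, adjusted p 4.59e-05), or 1.73-fold with an interval of 1.48 to 2.02. A larger rise was seen in 8.67% of tested probe sets in acn1-2 and 7.59% in Col-7.

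SDH2-1, one of the genes for the iron-sulfur subunit of succinate dehydrogenase, had smaller fitted changes than these. On its tested probe set, 257713_at, the acn1-2 intensities were 687.2, 656.3 and 645.8 with sucrose, against 416.8, 400.7 and 423.6 untreated. The Col-7 intensities were 625.4, 597.2 and 723.5 with sucrose, against 471.0, 425.7 and 462.6 untreated. Sucrose arrays were all higher, and the highest of the 12 was Col-7 sucrose replicate 3, one of the arrays that stood apart. The log2 change was 0.68 in acn1-2 (SE 0.10, limma adjusted p 7.26e-05), a 1.6-fold rise with an interval of 1.38 to 1.85. It was 0.51 in Col-7 (SE 0.10, adjusted p 0.000757), or 1.43-fold with an interval of 1.23 to 1.65. With both arrays that stood apart left out, the Col-7 change was 0.43 (adjusted p 0.00197).

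The other SDH2-1 probe set, 257742_at, carried no comparable signal. Its intensity ran from 1.9 to 2.6 in acn1-2 with sucrose, from 2.0 to 2.9 in Col-7 with sucrose, from 3.0 to 5.4 in untreated acn1-2 and from 2.4 to 2.6 in untreated Col-7. All 12 values lay under the floor of 14.4, so values on it have no order. Its mean of 2.775 lay under the filter of 29.1, so it was not tested. Every SDH2-1 result therefore rests on 257713_at alone.

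cICDH, which makes oxoglutarate and NADPH in the cytosol (probe set 261920_at), was the gene that fell. In acn1-2 its intensity was 1186.0, 1289.6 and 1287.4 with sucrose, against 1628.3, 1318.8 and 1601.0 untreated. In Col-7 it was 1266.3, 1320.1 and 1304.6 with sucrose, against 1608.9, 1592.8 and 1593.7 untreated. The media did not overlap in either line, although acn1-2 untreated replicate 2 came close to the highest acn1-2 sucrose array. The untreated Col-7 arrays were the closest together, at 1598 ± 9.05 (SD, n = 3).

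The fall of cICDH was small. Its log2 change was -0.27 in acn1-2 (SE 0.10, limma adjusted p 0.0344), or 0.83-fold with an interval of 0.716 to 0.964. In Col-7 it was -0.30 (SE 0.10, adjusted p 0.0224), or 0.811-fold with an interval of 0.699 to 0.942. A deeper fall was seen in 34.4% of tested probe sets in acn1-2 and 27.2% in Col-7, so cICDH lay inside the bulk of the sucrose changes. The acn1-2 call was lost on leaving out any 1 of the acn1-2 sucrose replicates (adjusted p 0.118, 0.0609 and 0.0601 for replicates 1, 2 and 3), acn1-2 untreated replicate 1 (0.117) or acn1-2 untreated replicate 3 (0.0884). In Col-7 the call was lost when any of 3 arrays was left out: Col-7 sucrose replicate 1 (0.0658), Col-7 untreated replicate 1 (0.0565) or Col-7 untreated replicate 2 (0.0514). The call in acn1-2 also ended with arrays centred on their median (0.0904), with only the groups compared (0.0801) and with both arrays that stood apart left out (0.0834).

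**Figure D2:**
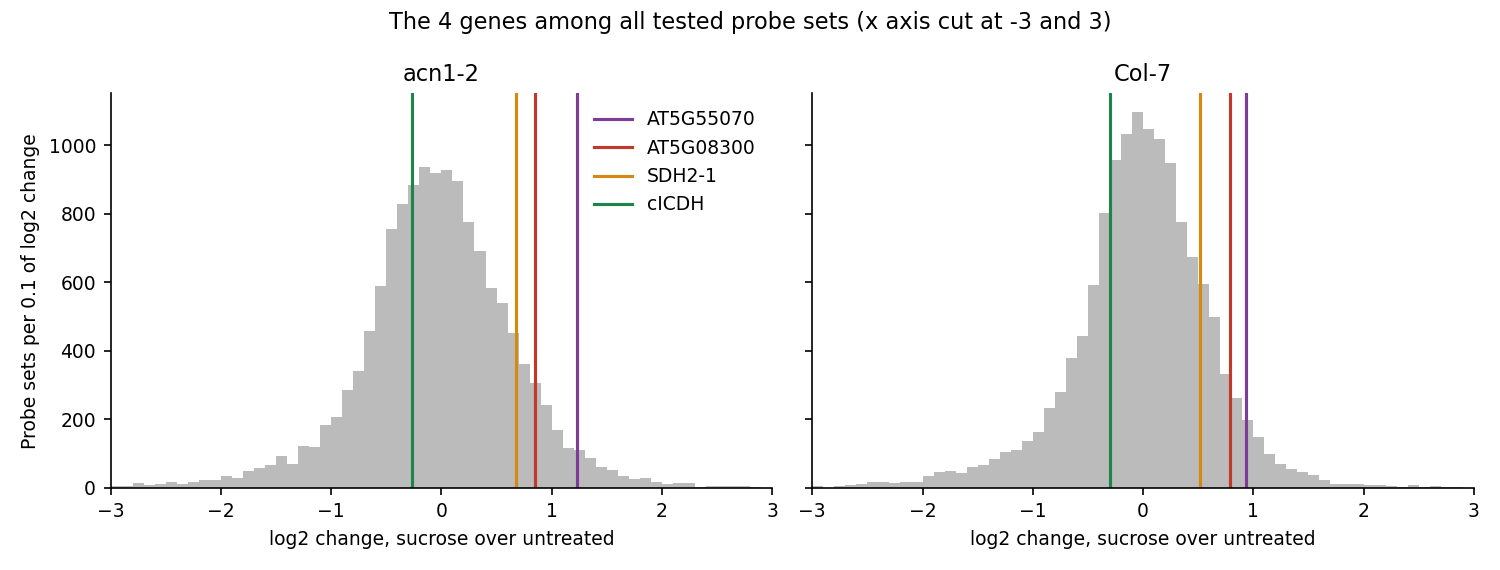
Number of tested probe sets per 0.1 of log2 change (sucrose over untreated) in acn1-2 and in Col-7, with the 4 genes as vertical lines. AT5G55070 lies at 1.23 and 0.94 in the upper tail, and cICDH at -0.27 and -0.30 near the centre.

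Several other measures moved with the medium. The 3' to 5' intensity ratio of the actin control was 6.01 ± 0.605 with sucrose and 2.31 ± 0.554 untreated in acn1-2, and 6.40 ± 0.492 with sucrose and 2.90 ± 0.563 untreated in Col-7 (SD, n = 3 each). That of the GAPDH control moved the other way, at 0.877 ± 0.0486 with sucrose and 1.24 ± 0.254 untreated in acn1-2, and 0.852 ± 0.0338 with sucrose and 1.15 ± 0.0695 untreated in Col-7. Shoot markers (RCA, PRK and SBPASE, of carbon fixation) all fell, with summed intensities of 3999.7 to 4146.2 with sucrose and 6510.9 to 10871.2 untreated in acn1-2. In Col-7 they summed to 3223.5 to 4716.7 with sucrose and 8029.1 to 8812.8 untreated. The root hair expansins EXPA7 and EXPA18 summed to 449.8 to 492.5 with sucrose and 277.4 to 305.7 untreated in acn1-2, and to 418.4 to 679.6 with sucrose and 295.2 to 312.3 untreated in Col-7. The named seed markers, AT3G01570 and PAP85, summed to 65.5 to 84.1 with sucrose and 37.5 to 68.3 untreated in acn1-2, and to 126.3 to 194.5 with sucrose and 83.8 to 120.3 untreated in Col-7, so their media ranges overlapped in acn1-2. The part of these measures in the changes of the 4 genes was not tested. In whole seedlings, fewer cells of a type and less RNA per cell cannot be told apart.

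Between the lines, none of the 4 genes was called in either medium. Without sucrose, 0 of 4 were called by limma, against 0.545% of all tested probe sets, and with sucrose 0 of 4, against 0.211%. At an unadjusted p under 0.05 the count was also 0 in each medium, against 14.4% of all tested probe sets untreated and 4.78% with sucrose, so a count of 0 among 4 genes says little. The median log2 change of the 4 genes, acn1-2 over Col-7, was -0.11 untreated and -0.05 with sucrose, where all tested probe sets had 0.03 and 0.00.

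The log2 changes in acn1-2 without sucrose were -0.37 for AT5G55070, with a 95% interval of -0.85 to 0.11, and -0.13 for SDH2-1, with an interval of -0.34 to 0.08. They were -0.10 for AT5G08300 (-0.32 to 0.13) and -0.08 for cICDH (-0.30 to 0.13). For AT5G55070 the value was -0.03 without acn1-2 untreated replicate 3, the array at 118.1. Untreated SDH2-1 arrays did not overlap between lines, at 400.7 to 423.6 in acn1-2 and 425.7 to 471.0 in Col-7. Untreated lines did not overlap in 17.9% of all tested probe sets, and 7.98% had such a gap with acn1-2 lower, and the SDH2-1 difference did not pass the test (limma adjusted p 0.55).

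With sucrose the lines overlapped for all 4 genes, where 14.2% of tested probe sets did not overlap. The log2 changes in acn1-2 were -0.08 for AT5G55070 (-0.56 to 0.41), -0.04 for AT5G08300 (-0.27 to 0.18), 0.04 for SDH2-1 (-0.18 to 0.25) and -0.05 for cICDH (-0.26 to 0.17). As folds these intervals ran from 0.68 to 1.33 for AT5G55070, from 0.831 to 1.13 for AT5G08300, from 0.886 to 1.19 for SDH2-1 and from 0.833 to 1.12 for cICDH.

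The sucrose change itself was compared between the lines by the interaction, the change in acn1-2 minus that in Col-7. By limma 0 of the 4 genes were called, against 0.0581% of all tested probe sets, and 0 had an unadjusted p under 0.05, against 10% of all tested probe sets. The interaction was 0.29 for AT5G55070 (95% interval -0.39 to 0.98, adjusted p 0.775) and 0.17 for SDH2-1 (-0.13 to 0.46, adjusted p 0.697). It was 0.06 for AT5G08300 (-0.26 to 0.37, adjusted p 0.925) and 0.03 for cICDH (-0.27 to 0.34, adjusted p 0.955). The AT5G55070 value turned to -0.05 without acn1-2 untreated replicate 3, and that of AT5G08300 also to -0.05. In the order of group means, the sucrose groups formed one end and the untreated groups the other for each gene. The lines within a medium were neighbours, and their differences did not pass the test.

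**Figure D3:**
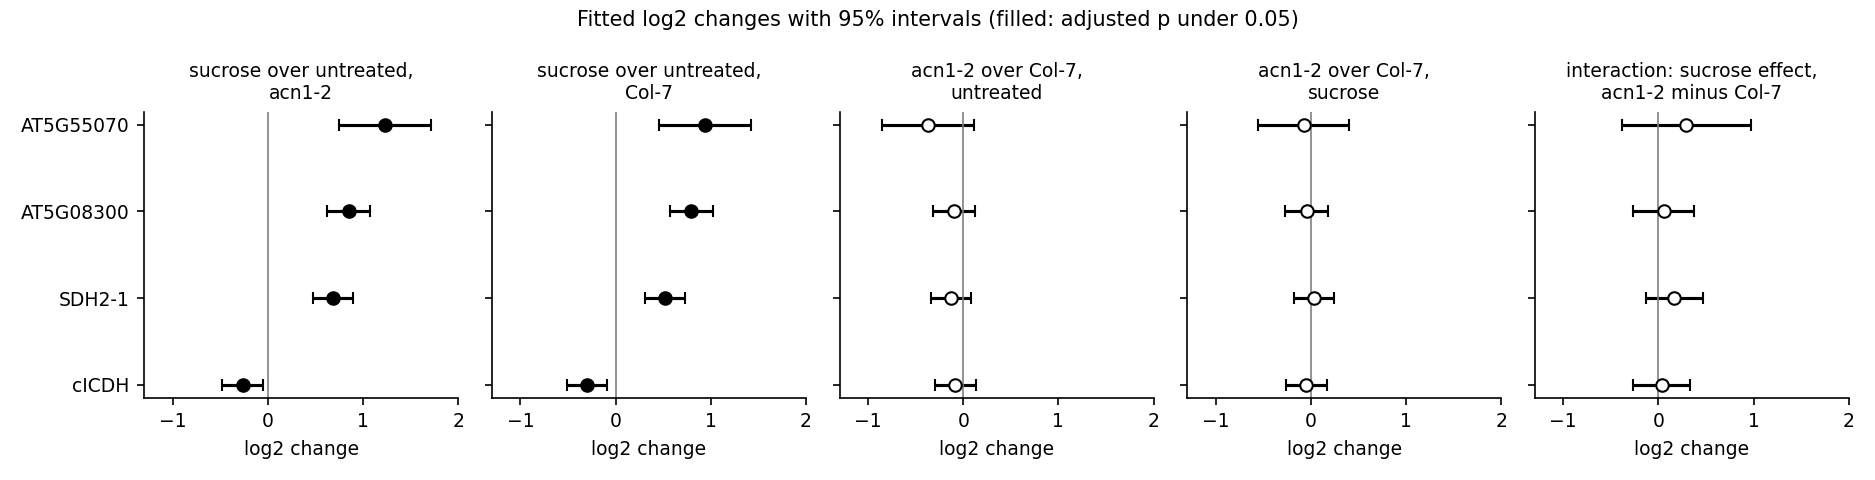
Fitted log2 changes (x axis) of the 4 genes in the 5 comparisons, with 95% intervals as bars; filled points passed an adjusted p under 0.05. All 8 sucrose changes are filled and all intervals between lines, and of the interaction, include 0.

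The 4 genes differed in how much they changed within the same arrays. The log2 ratio of AT5G55070 to cICDH was higher with sucrose than untreated by 1.5 in acn1-2 and 1.24 in Col-7, and its ranges did not overlap. The ratios of AT5G08300 and SDH2-1 to cICDH likewise did not overlap between media, with differences of 1.11 and 0.95 in acn1-2 and 1.09 and 0.82 in Col-7. These ratios to cICDH could not overlap, because each gene alone did not and cICDH went the other way. Their lack of overlap therefore adds nothing to the changes given above. Among the 3 genes that rose, the ratio of AT5G08300 to AT5G55070 overlapped between media in both lines. The ratios of AT5G08300 and AT5G55070 to SDH2-1 overlapped between media in acn1-2 and did not in Col-7. These are within-array ratios given as descriptions, and none of them was tested. The share of other gene pairs without overlap was not computed, so the lack of overlap in Col-7 says little.

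Over the 12 arrays, log2 intensities of AT5G08300 correlated at r 0.945 with AT5G55070 and 0.951 with SDH2-1, and at -0.856 with cICDH. These values mostly hold the shared sucrose change of the arrays. On deviations from the group means, AT5G08300 and AT5G55070 had r 0.806, while AT5G08300 and SDH2-1 had 0.06. The value of 0.806 leans on acn1-2 untreated replicates 2 and 3, where both genes had their widest deviations. On replicate 2 these were 0.115 for AT5G08300 and 0.538 for AT5G55070, and r without these arrays was not computed. Both AT5G08300 and AT5G55070 had their farthest deviation on acn1-2 untreated replicate 3, at -0.20 and -0.69. On that array 1.4% of tested probe sets lay farther from their group mean than AT5G55070. SDH2-1 lay farthest on Col-7 sucrose replicate 3 (0.16) and cICDH on acn1-2 untreated replicate 2 (-0.20).

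**Figure D4:**
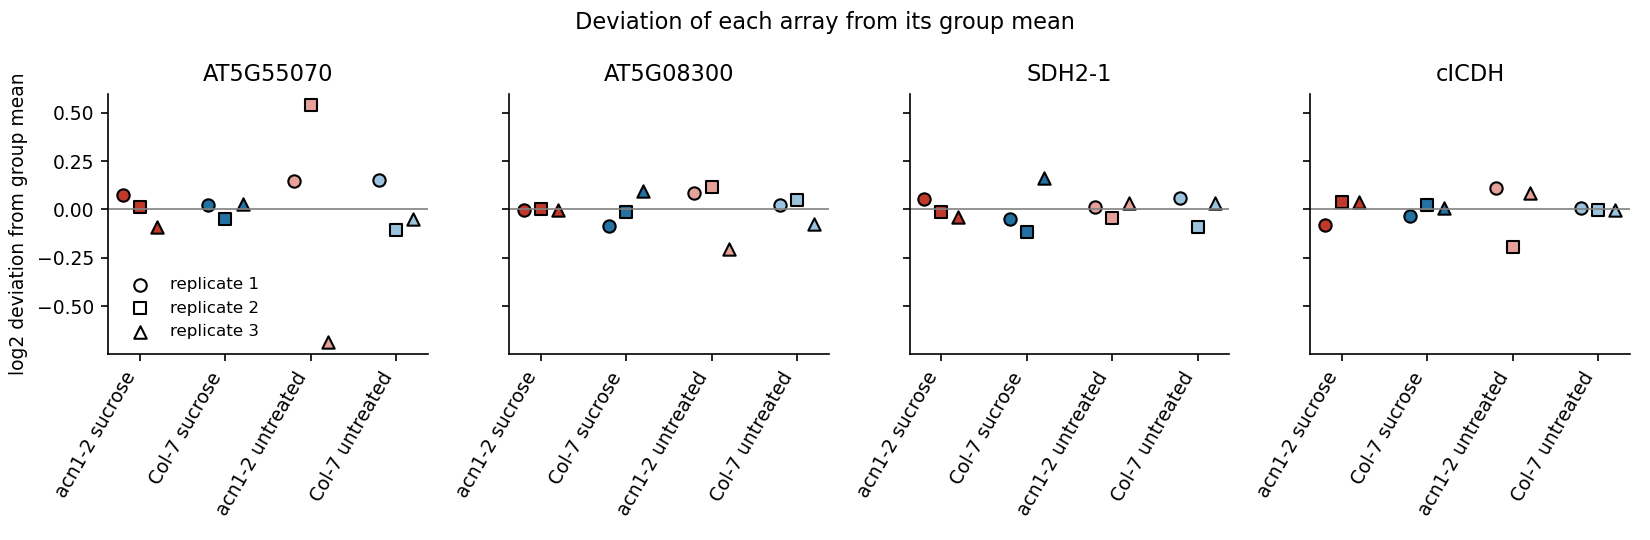
Log2 deviation of each array from its group mean (y axis) for the 4 genes, by group, with a symbol for each replicate number. The 3 untreated acn1-2 arrays of AT5G55070 spread from -0.69 to 0.54, farther than in any other group shown.

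The genes that share an enzyme with these 4 mostly moved the same way, except beside cICDH. The list used has 74 loci of the cycle, its branches and organic acid transport, of which the annotation named 28 and 26 were tested, the 4 genes included. No listed locus of citrate synthase, aconitase, fumarase, malic enzyme or phosphoenolpyruvate carboxylase had a named probe set. Neither had the mitochondrial malate dehydrogenase loci mMDH1 and mMDH2, so the counts below do not cover the whole cycle. Loci were placed under a step from general knowledge of Arabidopsis, since many carry only a locus number in the annotation. Of the other 22 tested loci, 16 rose, 0 fell and 6 did not pass in acn1-2, and the counts were the same in Col-7. Of all tested probe sets, 27.4% were called higher and 29.6% lower in acn1-2, and 25.9% higher and 24.3% lower in Col-7. Their median log2 change was 0.65 in acn1-2 and 0.58 in Col-7, against -0.04 and 0.00 over all tested probe sets.

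In the oxoglutarate dehydrogenase complex, 3 of 4 tested loci rose in each line. This count includes AT5G55070, whose rise was known when it was chosen. AT4G26910, placed with AT5G55070 as the same component, rose by 0.77 in acn1-2 and 0.71 in Col-7 on the log2 scale, and AT3G55410 by 0.67 and 0.78. AT5G65750 had 0.40 in acn1-2 and 0.41 in Col-7 (limma adjusted p 0.114 and 0.12), and it passed in 4 of 23 alternatives in acn1-2 and 3 of 23 in Col-7. Leaving out Col-7 sucrose replicate 3 was among them in both lines (adjusted p 0.0403 and 0.00849). The within-array ratio of AT5G55070 to AT4G26910 overlapped between media in both lines.

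All 3 succinyl-CoA ligase loci of the list were tested and rose in both lines. This count includes AT5G08300, whose rise was known when it was chosen. AT5G23250, placed as the same subunit as AT5G08300, rose by 0.70 in acn1-2 and 0.69 in Col-7, and AT2G20420, placed as its partner subunit, by 0.71 and 0.69. The log2 ratio of AT5G08300 to AT5G23250 overlapped between media in both lines, at 1.41 to 1.47 with sucrose and 1.19 to 1.46 untreated in acn1-2.

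In succinate dehydrogenase, 3 of the 12 listed loci were tested and rose in both lines. This count includes SDH2-1, whose rise was known when it was chosen. SDH2-2, the other iron-sulfur subunit gene measured, had mean intensities of 310 with sucrose and 191 untreated in acn1-2, and 305.5 with sucrose and 195 untreated in Col-7. Its log2 change was 0.71 in acn1-2 and 0.63 in Col-7. The flavoprotein subunit gene SDH1-1 rose by 0.53 and 0.68. The ratio of SDH2-1 to SDH2-2 overlapped between media in both lines, with shifts of -0.03 in acn1-2 and -0.11 in Col-7.

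The NADP isocitrate dehydrogenases split by direction. ICDH had mean intensities of 81.2 with sucrose and 44.2 untreated in acn1-2, and 74.4 with sucrose and 41.7 untreated in Col-7. Its log2 change was 0.86 in acn1-2 and 0.84 in Col-7. AT5G14590 rose by 0.86 in acn1-2 and 0.99 in Col-7 (limma adjusted p 1.46e-05 and 5.82e-06), while cICDH fell. The log2 ratio of cICDH to AT5G14590 was 2.27 to 2.63 with sucrose and 3.39 to 3.69 untreated in acn1-2, and 2.4 to 2.6 with sucrose and 3.76 to 3.9 untreated in Col-7. The ratio of cICDH to ICDH changed by -1.13 in acn1-2 and -1.14 in Col-7. Neither ratio could overlap between media, because each gene alone did not and cICDH went the other way. The NAD-dependent genes IDH-V and IDH-VI rose by 0.49 and 0.71 in acn1-2 and by 0.46 and 0.53 in Col-7.

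At the entry to the cycle, all 4 tested pyruvate dehydrogenase complex loci rose in both lines. They were MAB1 (0.27 in acn1-2 and 0.47 in Col-7), LTA3 (0.56 and 0.51), AT3G13930 (0.63 and 0.79) and AT1G54220 (0.72 and 0.75). The acn1-2 call of MAB1 ended without acn1-2 untreated replicate 2 (adjusted p 0.0991) and without acn1-2 sucrose replicate 2 (0.0705) or 3 (0.0927). It also ended with quantile normalization (0.0699) and with only the groups compared (0.0551).

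Beyond the cycle proper the list was mixed. MDH, listed with the malate dehydrogenases, rose by 0.99 in acn1-2 and 1.03 in Col-7, while AT5G58330, listed there too, had -0.20 in both lines and did not pass. The organic acid carrier locus AT5G19760 had 0.09 in acn1-2 and 0.27 in Col-7 and did not pass. Of the 4 tested subunit genes of ATP-citrate lyase, which returns citrate to acetyl-CoA in the cytosol, only ACLA-2 was called by limma, with rises of 0.85 and 0.53. The other 3 had log2 changes of 0.05 to 0.19 in acn1-2 and -0.11 to 0.08 in Col-7. Between the lines 0 of the 22 other loci were called by limma in either medium. Of all tested probe sets 0.545% were called untreated and 0.211% with sucrose, so this count says little. Untreated, the 95% intervals of acn1-2 over Col-7 lay below 0 for IDH-VI (-0.46 to -0.05) and ACLA-2 (-0.57 to -0.02). These intervals are not adjusted, and neither locus passed (limma adjusted p 0.259 and 0.316). In that comparison 14.4% of all tested probe sets had an unadjusted p under 0.05, so these intervals also say little.

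**Figure D5:**
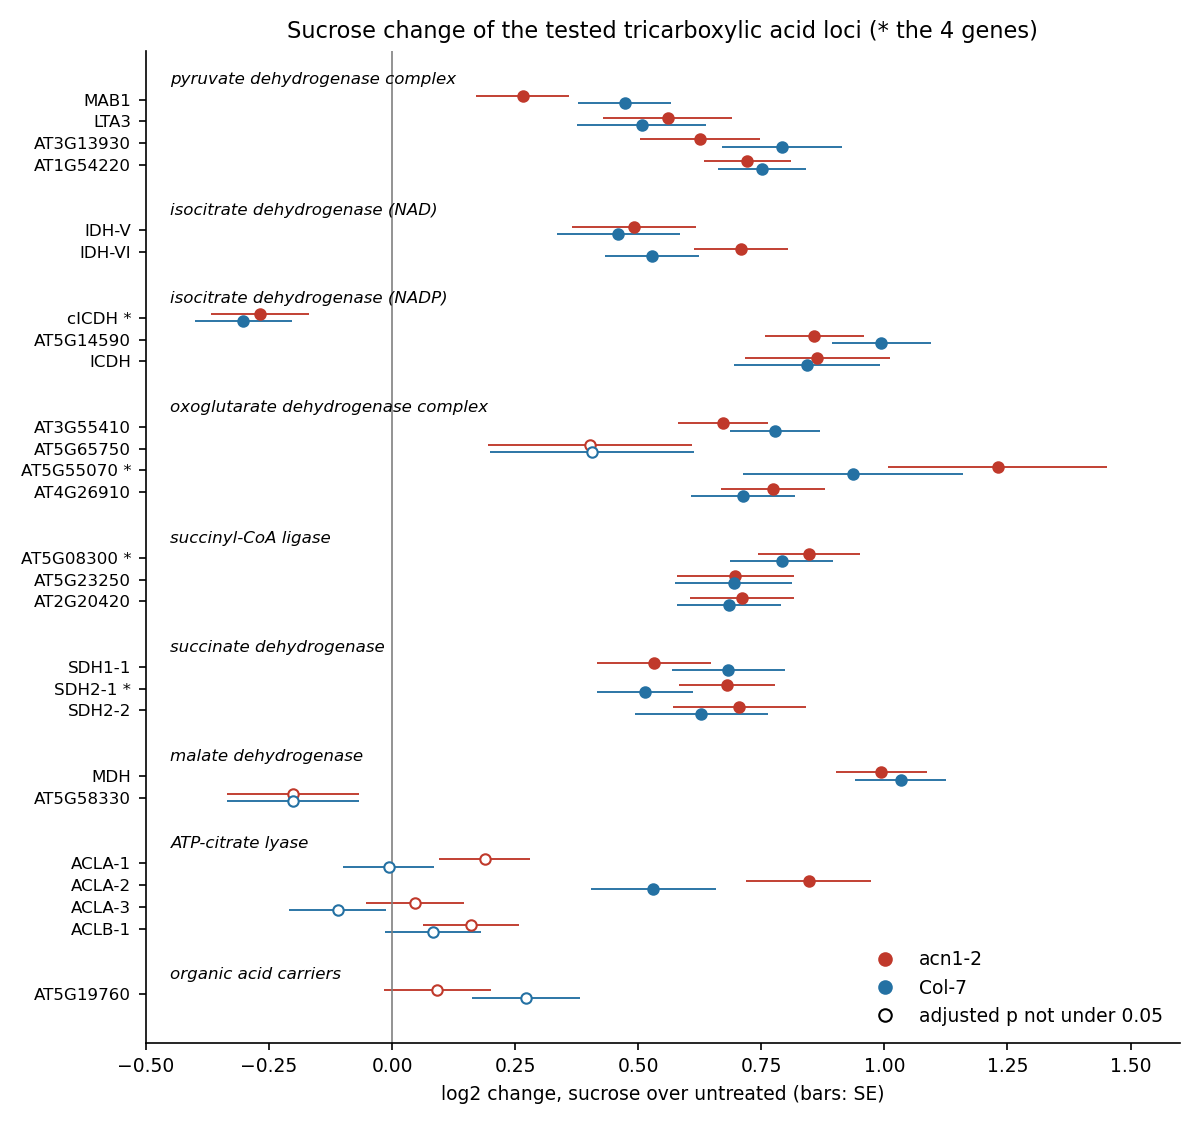
Log2 change, sucrose over untreated (x axis, bars are SE), of the 26 tested loci grouped by step, in acn1-2 and in Col-7; open points did not pass an adjusted p under 0.05 and an asterisk marks the 4 genes. Filled points lie right of 0 except those of cICDH, at -0.27 and -0.30.

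Respiratory chain loci were set beside these from a list of 25, which also held mitochondrial carriers and channels, none of them measured here under its own name. The 7 tested loci, CYTC-1, CYTC-2, MPPBETA, AT3G15640, AT5G11770, AT3G27240 and AT5G40810, all rose in both lines, where 27.4% of all tested probe sets were called higher in acn1-2 and 25.9% in Col-7. Their median log2 change was 0.54 in acn1-2 and 0.53 in Col-7, against -0.04 and 0.00 over all tested probe sets. With 1 array left out, 5 to 7 of them passed in each line. The annotation named 2 of 10 listed reference genes. AT2G28390 had a log2 change of 0.07 in acn1-2 and 0.25 in Col-7, and did not pass in either. AT4G34270 rose by 0.29 in acn1-2 and 0.28 in Col-7 (limma adjusted p 0.0351 and 0.0456), about the size of the cICDH fall. In acn1-2 that call was lost when replicate 1 or 3 of the sucrose arrays (0.103 and 0.123) or of the untreated arrays (0.0941 and 0.0706) was left out. In Col-7 it held in 11 of 24 alternatives. The 13 losses there included leaving out any untreated Col-7 array or sucrose replicate 2 or 3 of Col-7. They also included leaving out sucrose replicate 1 or 3 of acn1-2, or untreated replicate 1 of acn1-2. With these single arrays left out, the limma adjusted p was 0.0521 to 0.164. Without acn1-2 untreated replicate 1 the acn1-2 value of AT2G28390 was -0.03.

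The genes whose pattern was most like each of the 4 were taken by Pearson's r of log2 intensity over the 12 arrays, among 7382 other tested probe sets naming 1 gene. For SDH2-1 the nearest was CYTC-2, a cytochrome c gene of the electron transport chain, at r 0.991, followed by AT3G07480 (0.989) and AT2G20450 (0.988). CYTC-2 rose by 1.25 in acn1-2 and 0.99 in Col-7. For AT5G55070 they were AT5G35680 (0.987), AT4G10320 (0.986) and AT2G04400 (0.985). For AT5G08300 they were AT2G21580, AT2G24970 and AT1G17510, each at r 0.992. For cICDH they were FCLY, the farnesylcysteine lyase gene (0.958), UBC28, a ubiquitin-conjugating enzyme gene (0.955), and AT3G16370 (0.951). An r over 0.9 was common for AT5G08300 (12.8% of those compared) and SDH2-1 (11.8%), less so for AT5G55070 (5.82%), and rare for cICDH (0.569%). The arrays share the sucrose change, so these likenesses are descriptions.

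On deviations from the group means, AT2G24970 stayed among the nearest 3 of AT5G08300 and AT3G16370 among those of cICDH. None of the nearest 3 stayed for AT5G55070 or SDH2-1. The nearest to SDH2-1 became AT3G15640, at r 0.951, which stands in the respiratory chain list above.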

How the data were processed

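The deposited values are linear intensities, 1 per probe set and array, for 22810 probe sets; the authors scaled each array to a common 2% trimmed mean, as the values show. Of the summarising software, the sources used here say nothing. The 64 control probe sets were dropped, a floor was set at the pooled 25th percentile (14.4), and log2 values were taken with no further scaling. Probe sets with a mean at or above the pooled 40th percentile (29.1) were tested, 13764 in all. Groups and replicate numbers came from the sample labels.

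All 4 group means were fitted with limma 3.58.1 in R 4.3.3 (8 residual and 4.87 prior degrees of freedom), with two-sided tests and Benjamini-Hochberg adjustment over all tested probe sets. The median standard error was 0.13. The fit was tested on simulated data, with independent noise and few changed probe sets, for the Col-7 sucrose comparison only. That checks the code and not the calls given here. Genes came from the platform annotation through gene identifiers (RefSeq, TAIR10.1), and no coordinates or sequences are given. For list loci with several probe sets the brightest was used. Named genes were the 4 genes, the tested list loci by step, and the 3 genes most like each by r. The genes and lists were chosen with earlier results of these data known. Alternatives covered scaling, filter, floor, variance model, samples, block, background covariate and single arrays; those for list loci were added after seeing the data. Figures used matplotlib 3.10.9.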

Additional observations from a re-analysis of the deposited data

How the results depend on the processing

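The 6 sucrose calls of AT5G55070, AT5G08300 and SDH2-1 passed in each of the 24 alternatives, with log2 values from 0.89 to 1.5, 0.75 to 0.90 and 0.63 to 0.72 in acn1-2 and from 0.88 to 1.01, 0.74 to 0.83 and 0.43 to 0.57 in Col-7. cICDH kept its sign but passed in 16 of 24 in acn1-2 and 21 of 24 in Col-7. In acn1-2 it lost its call with arrays centred on the median (-0.22), with only the groups compared (-0.27) and with both arrays that stood apart left out (-0.23); leaving out 1 array gave -0.37 to -0.21 in acn1-2 and -0.31 to -0.28 in Col-7. The cause was not tested, except that leaving out arrays or groups leaves fewer samples.

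Small differences between the lines changed sign in a few alternatives, and none was called in any. With both arrays that stood apart left out, AT5G08300 had 0.0036 untreated and 0.0059 with sucrose, and the AT5G55070 interaction was -0.0352. With 1 array left out, AT5G08300 ran from -0.15 to 0.0036 untreated, from -0.0836 to 0.0059 with sucrose and from -0.0458 to 0.11 for the interaction. cICDH ran from -0.14 to 0.0145 untreated and from -0.0636 to 0.0884 for the interaction, SDH2-1 from -0.0212 to 0.12 with sucrose, and the AT5G55070 interaction from -0.0483 to 0.56. The reference gene AT2G28390 turned to -0.0287 in acn1-2 without acn1-2 untreated replicate 1.

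Counts over all probe sets moved more. Between lines untreated, 75 became 42 with no filter, 25 with only the groups compared, 41 with the replicate block, 46 with scanner background as a covariate, and 28 to 92 with 1 array left out. Over all 24 alternatives this count ran from 25 to 100. Between lines with sucrose, 29 became 10 with the stricter filter (mean at or above 62.3), 17 with no floor, 63 without the arrays that stood apart, and 164 when arrays were weighted. The interaction count of 8 became 13 with the stricter filter, 18 with trend and robust, 22 with array weights, 13 with both arrays left out, and 4 to 19 with 1 array left out. The other list loci called higher numbered 15 to 18 in acn1-2 and 16 to 18 in Col-7.

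Same-numbered arrays of different groups correlated in their deviations at -0.10 to 0.14, so the numbers were not taken to pair the arrays. The replicate block changed no call of the 4 genes, with adjusted p of 0.0497 for cICDH in acn1-2 and 0.0347 in Col-7. Dim probe sets limit what can be said, as for 257742_at.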
